A study of Rattus norvegicus with 17 samples.

Results

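Ager, Vegfa and Nos3 were examined as genes of the alveolar-capillary barrier in RNA sequencing of rat lung parenchyma. They were chosen by identity, as the rows ENSRNOG00000000439 (Ager), ENSRNOG00000019598 (Vegfa) and ENSRNOG00000009348 (Nos3), and are 3 of the 32753 genes in the count table. All 3 passed the expression filter, which 15000 genes passed. The table lists Ensembl rat gene IDs without names, and the 3 names were given with the member list, so that they rest on that list.

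All rats were of the strain RjHan:WI, a Wistar rat. The control group (6 libraries, numbered 1 to 6) received NaCl. The bleomycin group (5 libraries, numbered 7, 8, 9, 11 and 12) received bleomycin at 1 mg per kg, a cytotoxic antibiotic used to injure rodent lungs and produce fibrosis. The treated group (6 libraries, numbered 13 to 18) received the same bleomycin dose of 1 mg per kg and also 2.5 mg per kg of BI1015550. The series title names this compound as an inhibitor of PDE4B, an enzyme that degrades cyclic AMP, and the model as therapeutic. The labels state neither age, sex, route, dosing schedule nor time point. They also do not say whether the libraries of a group stem from different animals; p-values here refer to the spread between libraries, which may be technical in part.

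The barrier across which the lung exchanges gas is made of thin alveolar type 1 epithelial cells laid against capillary endothelium. Ager encodes RAGE, a receptor of the immunoglobulin superfamily for glycated proteins and alarmins, which in the healthy lung is abundant on alveolar type 1 cells. Vegfa encodes a secreted growth factor made by the alveolar epithelium, which acts on endothelial cells through the receptor KDR, and its transcription is known to respond to hypoxia. Nos3 encodes endothelial nitric oxide synthase, which makes nitric oxide from arginine. Nitric oxide raises cyclic GMP in smooth muscle and relaxes the vessel wall, and signalling from VEGF receptors is known to activate the enzyme.

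Library totals lay between 14609389 and 18462105 counts. Controls had the highest totals on average and treated libraries the lowest, and all 3 pairs of groups differed (two-sided exact permutation tests, adjusted p = 0.00649 to 0.0312 over 6 tests). The share of counts held by the 10 most abundant genes was 6.15% to 7.97% in controls, 8.1% to 9.35% with bleomycin and 6.51% to 7.28% in treated libraries. Levels below are counts scaled to library size (CPM) after correction of the sizes by the trimmed mean of M values (TMM). Differences are log2 fold changes from 1 edgeR quasi-likelihood fit to all 17 libraries, with p-values adjusted by the Benjamini-Hochberg method over the 15000 genes tested and a threshold of 0.05. In bulk tissue, fewer cells of a type and less RNA per cell cannot be told apart. Markers of alveolar, endothelial and other cell types could not be read, since the other IDs carry no names, and the part of cell composition in the results below was not tested.

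Vegfa and Nos3 moved in opposite directions with bleomycin, as described below, and no link of this to their upstream sequences was tested. The sequences just upstream of their annotated starts are shown as a description only. They come from RefSeq (build GRCr8), run 5′ to 3′ on the strand of the gene and leave out bases that lie inside the annotated gene. Capitals mark the letters GGGCGG, the core of the GC box to which Sp1-family factors bind, searched on both strands.
Vegfa, chr9:22452604-22452853, plus strand: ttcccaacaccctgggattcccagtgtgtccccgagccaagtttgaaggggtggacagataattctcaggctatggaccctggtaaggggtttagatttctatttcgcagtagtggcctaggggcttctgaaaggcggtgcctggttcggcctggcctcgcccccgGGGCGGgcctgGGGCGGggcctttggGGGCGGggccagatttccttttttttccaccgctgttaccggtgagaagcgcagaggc
Nos3, chr4:11706605-11706831, minus strand: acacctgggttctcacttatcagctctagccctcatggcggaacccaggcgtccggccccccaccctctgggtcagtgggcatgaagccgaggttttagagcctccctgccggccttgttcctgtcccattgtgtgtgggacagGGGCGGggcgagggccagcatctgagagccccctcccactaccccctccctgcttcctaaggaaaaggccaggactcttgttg
The Vegfa stretch held 3 matches and the Nos3 stretch 1. Of 33469 RefSeq promoter windows of 250 bases, 30.5% held at least 1. For Ager, the 250 bases before the listed start lie inside the annotated gene model of Ager itself on chromosome 20. They are not shown, and they held no match. None of these windows held the hypoxia response element core ACGTG (16.6% of all windows), the AP-1 letters TGACTCA (4.05%) or the TATA box letters TATAAA (12.9%). A second RefSeq start of Vegfa lies inside the gene, and the window before it held none of the 4 motifs. GC content was 60.4% in the window at the first Vegfa start and 62.4% at Nos3, against a median of 51.2% over all windows. It was 53.2% in the Ager window, which lies inside that gene. A match describes the letters of a window and shows neither binding nor use of the site. Sites more than 250 bases before these starts were not searched, so the lack of a match says nothing of them.

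The first comparison asks what bleomycin changed in the lung. Ager and Vegfa were lower with bleomycin than in controls, by 41.2% and 43.1%, while Nos3 was 57% higher. All 3 differences passed the test, in a comparison in which 38.3% of the tested genes did, 20.2% as higher and 18% as lower. The groups' CPM ranges did not overlap for Vegfa and Nos3 and overlapped for Ager, and 18.1% of tested genes had ranges that did not overlap.

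Ager, the receptor of alveolar type 1 cells, was among the most abundant transcripts, at rank 25 of all genes by mean CPM in controls. The control libraries 1 to 6 held 2826, 1722, 2039, 2210, 1480 and 1828 CPM. Bleomycin libraries 7, 8, 9, 11 and 12 held 734, 1337, 1158, 1714 and 988 CPM. Of the 5 bleomycin libraries, 4 lay below every control, and library 11 lay between the lowest control (library 5) and the next. The control mean was 2017 ± 470 CPM (SD, n = 6) and the bleomycin mean 1186 ± 369 CPM (SD, n = 5), with rank 56. The log2 fold change was -0.77 (SE 0.19, edgeR adjusted p = 0.00422), and 7.59% of tested genes had a lower one. It was -0.94 without bleomycin library 11 and -0.63 without bleomycin library 7, and passed the threshold in all 17 fits that left out 1 library.

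Vegfa, the ligand, showed a fall of about the same size with less spread. Controls 1 to 6 held 1200, 1125, 1218, 1279, 906 and 1210 CPM, so that 5 of the 6 lay close together and library 5 lay lower. Bleomycin libraries held 457, 783, 635, 783 and 629 CPM in the order 7, 8, 9, 11 and 12. Every bleomycin library was below every control. The mean went from 1156 ± 132 CPM (SD, n = 6) to 657 ± 135 CPM (SD, n = 5). This was a log2 fold change of -0.81 with SE 0.14 (edgeR adjusted p = 0.000249), and 6.76% of tested genes had a lower one.

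Nos3, the synthase, was a gene of moderate abundance, with 388 to 776 counts per library. Its control libraries 1 to 6 held 26.0, 23.8, 32.7, 32.8, 25.1 and 31.0 CPM. Bleomycin libraries 7, 8, 9, 11 and 12 held 46.1, 45.9, 39.3, 42.6 and 50.2 CPM, each above every control. The mean rose from 28.6 ± 4.05 CPM (SD, n = 6) to 44.8 ± 4.09 CPM (SD, n = 5). This was a log2 fold change of 0.65 with SE 0.13 (edgeR adjusted p = 0.000849), and 10.2% of tested genes had a higher one. In GRCr8 the end of Nos3 overlaps the neighbouring autophagy gene Atg9b. No source used here says whether the counting used strand, so reads from the overlap could have been assigned to either gene; Ager (between Rnf5 and Pbx2) and Vegfa overlap no other gene there.

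**Figure D1:**
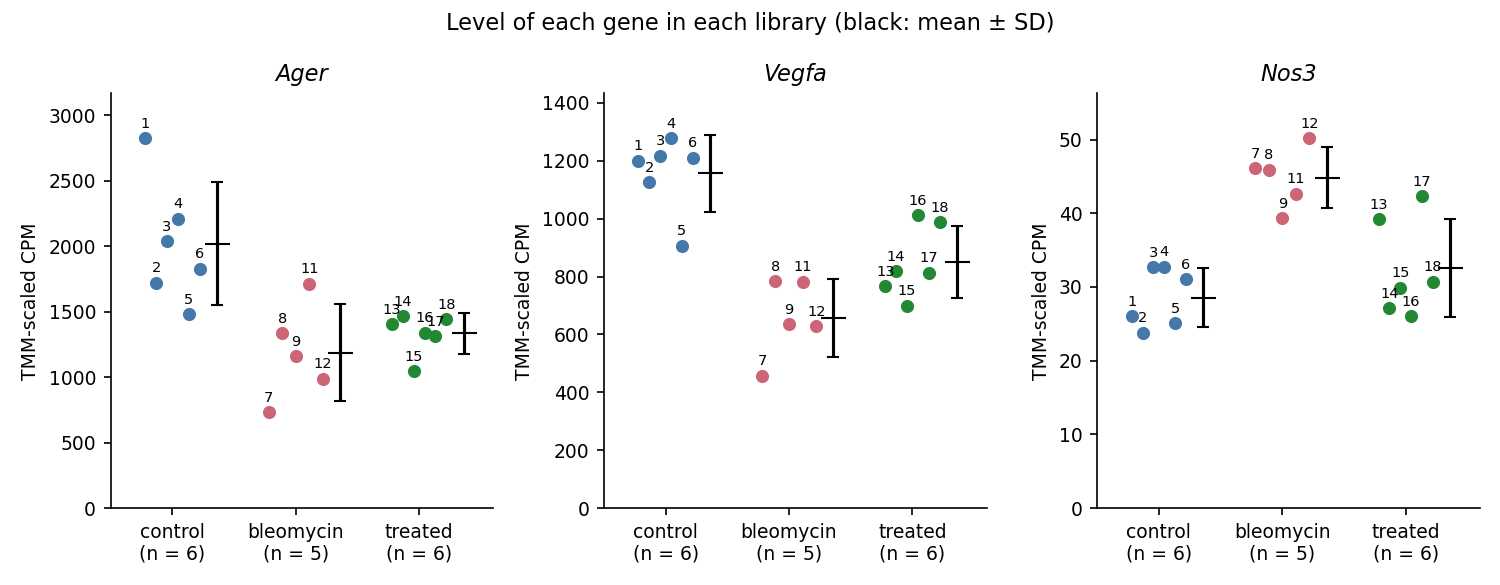
Level of Ager, Vegfa and Nos3 in each library in TMM-scaled CPM (vertical axes from 0), by group; points are libraries with their number, and black marks give the mean ± SD. Every bleomycin library lies below every control for Vegfa and above every control for Nos3, while for Ager bleomycin library 11 (1714 CPM) lies within the control range.

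The second comparison asks what BI1015550 changed in lungs that had received bleomycin. Nos3 was 27.4% lower in treated than in bleomycin libraries and passed the test. Vegfa was 29.2% higher but just missed the threshold, and for Ager the difference was within the spread between libraries. In this comparison 27.8% of tested genes were called, 12.1% as higher and 15.7% as lower, and 14.1% had ranges that did not overlap. For all 3 members the ranges of the groups overlapped.

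For Nos3, treated libraries 13 to 18 held 39.2, 27.1, 29.9, 26.1, 42.3 and 30.7 CPM. Libraries 14, 15, 16 and 18 lay inside the control range of 23.8 to 32.8 CPM. Libraries 13 and 17 stood above them, the latter inside the bleomycin range of 39.3 to 50.2 CPM and the former just under it. The treated mean was 32.6 ± 6.66 CPM (SD, n = 6), and 5 of 6 treated libraries lay below every bleomycin library. The log2 fold change against bleomycin was -0.46 (SE 0.13, edgeR adjusted p = 0.0142), and 12% of tested genes had a lower one. It was -0.66 without libraries 13 and 17 together, and leaving out the treated libraries with the most Nos3 had to lower it.

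The 2 treated libraries with the highest Nos3 were not the ones nearest to bleomycin across all genes. On principal component 1 of the log2 CPM values (35.8% of the variance) controls lay from -38.4 to -25.7 and bleomycin libraries from 25.5 to 68.2, while treated libraries 13 and 17 lay at -13.4 and -11.6. These were the treated libraries nearest to the controls. The remaining treated libraries lay from -4.17 to 8.57. This pairing was noticed after the values were seen and was not tested.

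For Vegfa, treated libraries 13 to 18 held 766, 819, 700, 1012, 813 and 987 CPM. Of these, 4 lay above every bleomycin library, and libraries 16 and 18 lay inside the control range, above control library 5. The mean of 849 ± 124 CPM (SD, n = 6) lay between those of the other groups. Against bleomycin the log2 fold change was 0.37 (SE 0.14, 95% interval 0.08 to 0.66, edgeR adjusted p = 0.0519). The call turned with some methods and not with others. In edgeR the adjusted p was 0.0523 and 0.0601 with 2 other kinds of scaling factor, and 0.0542 and 0.0785 with 2 other filters. A robust fit gave 0.0526 and a fit to the 2 groups alone 0.0802. The adjusted p was 0.0353 with DESeq2, 0.0369 with limma voom and 0.0295 with libraries scaled by total counts only. It also passed in 4 of the 17 fits that left out 1 library, namely without control library 5 (0.0437), bleomycin library 8 (0.0275), bleomycin library 11 (0.0335) or treated library 15 (0.0362), with a range of 0.0275 to 0.127 over all alternatives.

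For Ager, treated libraries 13 to 18 held 1403, 1466, 1043, 1339, 1313 and 1443 CPM. All of them fell inside the bleomycin range of 734 to 1714 CPM. Apart from library 15 they lay within a narrow band, and the mean was 1335 ± 154 CPM (SD, n = 6). The log2 fold change against bleomycin was 0.17 (SE 0.19, edgeR adjusted p = 0.516). The 95% interval reached from -0.22 to 0.56, that is from a difference of -14.3% to one of 47.6%, so a rise of the size fitted for Vegfa lay within it. Bleomycin libraries 7 and 11 moved this value most: it was 0.34 without library 11 and 0.038 without library 7, and the adjusted p ranged from 0.168 to 0.888 over all alternatives.

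**Figure D2:**
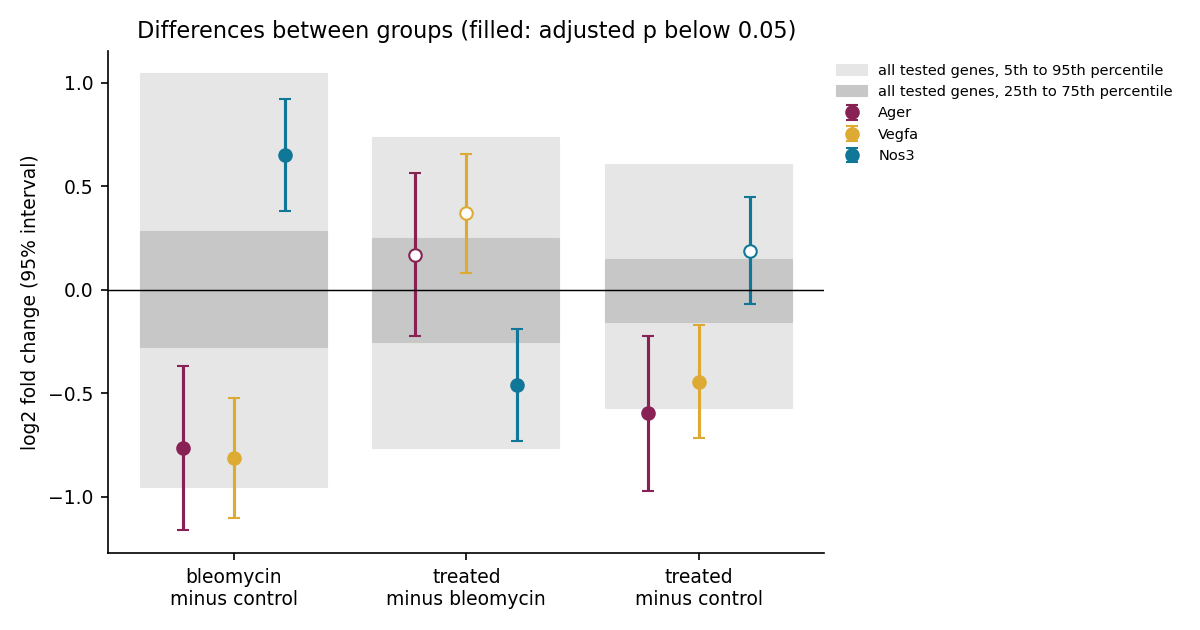
Log2 fold changes of the 3 genes in each pair of groups with 95% intervals (vertical axis); filled points have an adjusted p below 0.05, and grey bands give the 5th to 95th and 25th to 75th percentiles of all 15000 tested genes. Nos3 is at 0.65, -0.46 and 0.19 from left to right, while Ager is at -0.77, 0.17 and -0.60.

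The third comparison sets treated lungs against controls, to see which differences from uninjured lungs were left. It shares its control libraries with the first comparison and its treated libraries with the second, so the 3 sets of values are not independent. Ager was 33.8% below control and Vegfa 26.6% below it, both past the threshold in a comparison that called 8.39% of tested genes, 3.92% as higher and 4.47% as lower. Nos3 was 14% above control and was not called.

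Ager in all 6 treated libraries lay below all 6 controls, a separation seen in 5.59% of tested genes. The lowest control (1480 CPM) and the highest treated library (1466 CPM) were close to each other. On the log2 scale the difference from control was -0.60 (SE 0.18, edgeR adjusted p = 0.0459), and 4.53% of tested genes had a lower one. Its sign was the same in all 27 alternatives, but the call was kept in 12 of them and lost in 15. The call was lost in 13 of the 17 fits that left out 1 library. The highest adjusted p of these was 0.102, without treated library 15. An edgeR fit to the 2 groups alone (adjusted p = 0.0158), DESeq2 (0.0149) and limma voom (0.0146) kept the call. The value was -0.47 (adjusted p = 0.098) without control library 1, which held the most Ager.

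Vegfa in treated libraries overlapped the controls, with 4 of 6 libraries below every control. The log2 fold change was -0.45 (SE 0.13, edgeR adjusted p = 0.0414), and 7.78% of tested genes had a lower one. The sign stayed the same in all 27 alternatives, while the call was kept in 15 of them and lost in 12. The call was lost in 10 of the 17 fits that left out 1 library. Adjusted p-values of these reached up to 0.094 (without treated library 15). It was kept in an edgeR fit to the 2 groups alone (adjusted p = 0.0178), with DESeq2 (0.0131) and with limma voom (0.0103).

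Nos3 in 4 of 6 treated libraries lay inside the control range, and libraries 13 and 17 lay above it. The log2 fold change against control was 0.19 (SE 0.12, 95% interval -0.07 to 0.45, edgeR adjusted p = 0.396). As a change in level this interval reached from -4.76% to 36.5%. Without libraries 13 and 17 together the value was -0.0050 (adjusted p = 0.99). These libraries held the most Nos3 of the group, so leaving them out had to lower the value.

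**Figure D3:**
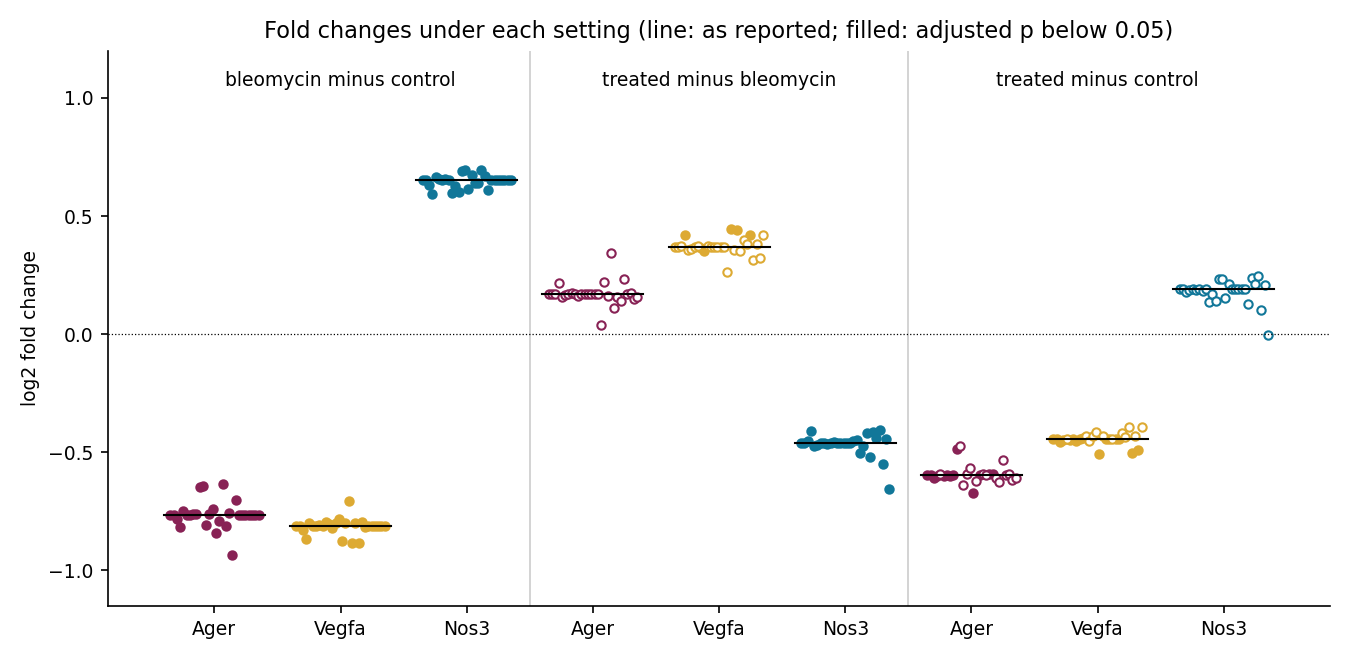
Log2 fold change (vertical axis) of each gene in each pair of groups as reported (black line) and under every setting tried (points, filled where the adjusted p is below 0.05). All points are filled for bleomycin against control; for treated against control the Ager and Vegfa points keep their sign while many are open.

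The ratio of the counts of 2 genes in the same library needs no scaling between libraries and shows whether the genes changed by different amounts. Groups were compared on the log2 ratio with exact permutation tests over libraries (two-sided), adjusted over the 9 tests, and the smallest p that 5 against 6 or 6 against 6 libraries allow is 0.00216. Only differences of a ratio between groups are read here, since its level also depends on transcript length. The ratios use the same counts as the tests of single genes, so they are no separate evidence for a change in either gene.

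The Vegfa to Ager ratio differed between groups by less than its spread between libraries. Its log2 mean was -0.78 ± 0.24 (SD) in the 6 controls, -0.82 ± 0.19 in the 5 bleomycin libraries and -0.66 ± 0.18 in the 6 treated libraries. Bleomycin and control differed by -0.04 (SE 0.13, exact permutation p = 0.719, adjusted p = 0.719), and this small difference turned to 0.038 without bleomycin library 11. Treated libraries differed from bleomycin by 0.16 (SE 0.11, exact permutation p = 0.19, adjusted p = 0.245). The difference from control was 0.12 (SE 0.12, exact permutation p = 0.355, adjusted p = 0.399). The test thus did not separate the response of Vegfa to the compound from that of Ager, although Vegfa lay nearer to the threshold than Ager when each was tested alone.

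For the Nos3 to Vegfa ratio all 3 differences passed the test. Its log2 values were -5.56 to -5.17 in controls, -4.20 to -3.31 with bleomycin and -5.28 to -4.26 in treated libraries. No bleomycin library overlapped a control or a treated library, while treated library 16 (-5.28) lay within the control range. The ratio was 2.81-fold higher with bleomycin than in controls (log2 difference 1.49, SE 0.18, exact permutation p = 0.00216, adjusted p = 0.00649). In treated libraries it was 1.82-fold lower than with bleomycin (log2 difference -0.86, SE 0.24, exact permutation p = 0.00649, adjusted p = 0.0117). It remained 1.54-fold above control (log2 difference 0.63, SE 0.18, exact permutation p = 0.00649, adjusted p = 0.0117, with 5 of 6 treated libraries above every control). In that comparison the log2 fold change was -0.45 for Vegfa alone and 0.19 for Nos3 alone, the latter not called.

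The Nos3 to Ager ratio was 2.73-fold higher with bleomycin than in controls (log2 difference 1.45, SE 0.27, exact permutation p = 0.00216, adjusted p = 0.00649), with no overlap. Treated libraries lay 1.68-fold above control (log2 difference 0.75, SE 0.19, exact permutation p = 0.00216, adjusted p = 0.00649), again with no overlap. Their difference from bleomycin was -0.70 (SE 0.27, exact permutation p = 0.0303, adjusted p = 0.0455). That call was lost in 9 of the 11 comparisons that left out a bleomycin or treated library, with adjusted p-values of up to 0.0952, so it is not firm.

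**Figure D4:**
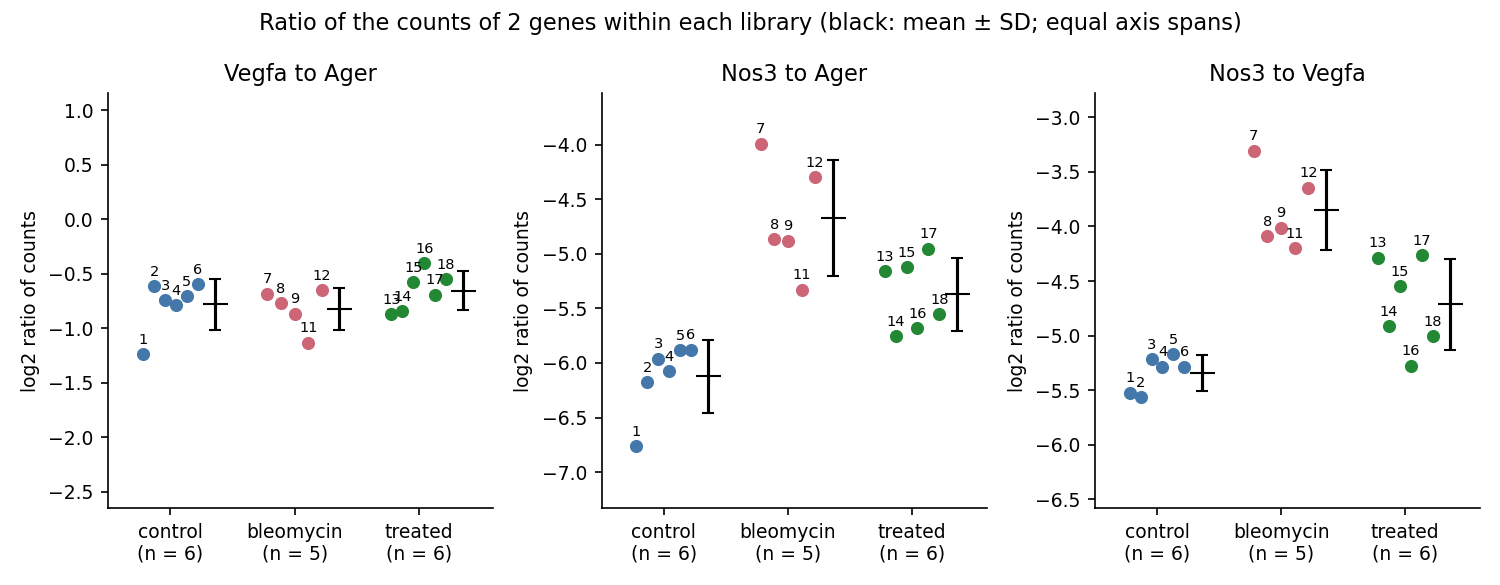
Log2 ratio of the counts of 2 genes within each library (vertical axes, all of equal span), by group; points are libraries with their number, and black marks give the mean ± SD. The Vegfa to Ager ratio overlaps in all groups, while the Nos3 to Vegfa ratio is -4.20 to -3.31 with bleomycin, above every control and treated library.

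Among libraries of 1 group, the correlation of Ager and Vegfa was positive in controls and in treated libraries, but neither passed the test. In controls their log2 CPM had a Pearson r of 0.70 (exact permutation p = 0.139, adjusted p = 0.417 over 6 correlations) and a Spearman rho of 0.66 (exact permutation p = 0.175, adjusted p = 0.427), with r = 0.92 without the 2 libraries farthest from the median of Ager. In treated libraries r was 0.57 (exact permutation p = 0.239, adjusted p = 0.478) and rho 0.49 (exact permutation p = 0.356, adjusted p = 0.427), with r = 0.16 without the 2 farthest. Bleomycin library 7 held the least of both genes, and library 11 the most Ager and, with library 8, the most Vegfa. Library 7 was also the one farthest from the controls on principal component 1, at 68.2. No correlation was computed for the 5 libraries of that group.

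No relation of Nos3 with Ager passed the test, with r = 0.27 in controls (rho 0.60, exact permutation p = 0.606 and 0.242, adjusted p = 0.727 and 0.427) and 0.022 in treated libraries (rho -0.20, exact permutation p = 0.974 and 0.714, adjusted p = 0.974 and 0.714). Without the 2 farthest libraries r was 0.81 and -0.18. With Vegfa, Nos3 had r = 0.65 in controls (exact permutation p = 0.0986, adjusted p = 0.417), and rho was 0.94 (exact permutation p = 0.0167, adjusted p = 0.1). In treated libraries r was -0.39 (exact permutation p = 0.438, adjusted p = 0.656) and rho -0.49 (exact permutation p = 0.356, adjusted p = 0.427). Without the 2 libraries farthest from the median of Vegfa these r were 0.62 and 0.20.

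**Figure D5:**
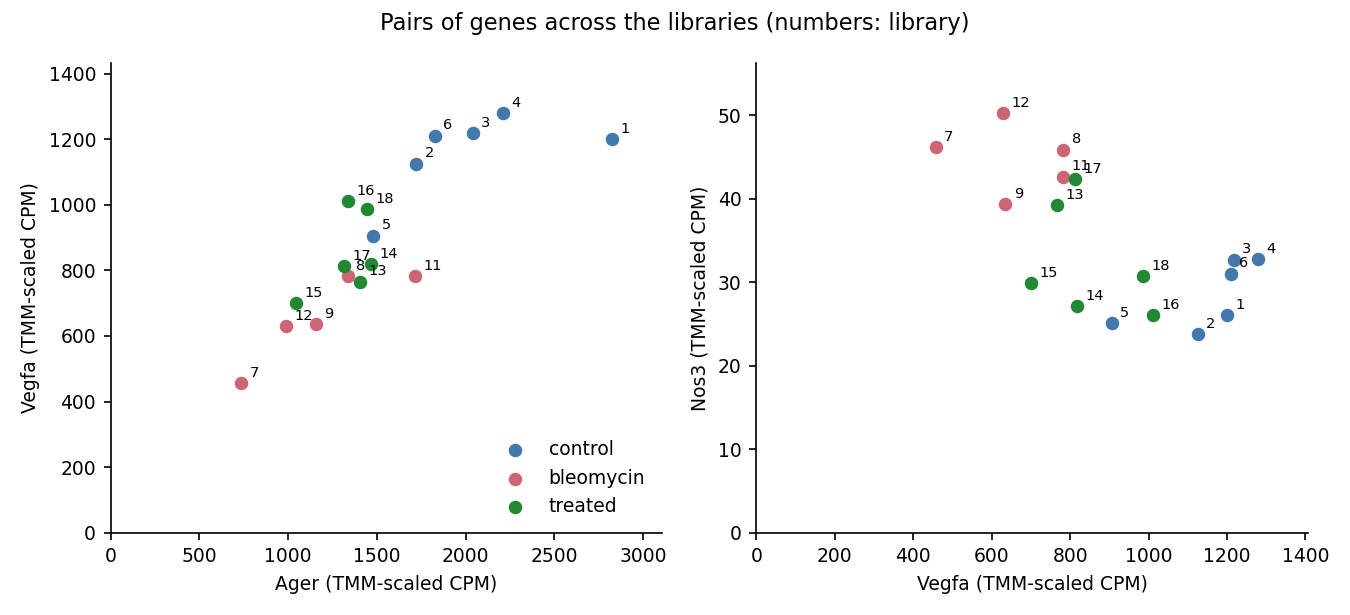
TMM-scaled CPM of Vegfa against Ager (left) and of Nos3 against Vegfa (right) in the 17 libraries, coloured by group and numbered. In the left plot bleomycin library 7 (734 and 457 CPM) lies lowest on both axes; in the right plot treated libraries 13 and 17 lie beside the bleomycin libraries.

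The 3 genes differed in how many other genes followed their pattern over the 17 libraries. Likeness was measured by the Pearson correlation of log2 CPM with each of 11724 other genes with a mean of at least 5 CPM, as a description that includes the differences between groups. Ager had 50 genes with r above 0.9 and Vegfa 71, whereas Nos3 had 0. How common such counts are among all genes was not determined. The 2 barrier transcripts that fell were alike, with r = 0.90, and Vegfa ranked 63 among the genes most like Ager. Nos3 had r = -0.52 with Ager and -0.65 with Vegfa.

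The gene most like Ager was ENSRNOG00000016890 (r = 0.97), with 535 ± 165 CPM (SD) in the 6 controls, 317 ± 103 in the 5 bleomycin libraries and 329 ± 39 in the 6 treated libraries. The one most like Vegfa was ENSRNOG00000050214 (r = 0.97), at 12 ± 1.38, 8.07 ± 1.37 and 9.4 ± 0.862 CPM. For Nos3 it was ENSRNOG00000025892 (r = 0.87), at 47.9 ± 4.23, 66.9 ± 4.67 and 47.1 ± 3.07 CPM. The files do not pair these IDs with names. The last of them was lower in treated than in bleomycin libraries (log2 fold change -0.51), with a treated mean close to that of controls. Each of these genes was picked for its likeness over the same libraries. Their differences between groups are thus no separate support for those of the members.

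The spread between libraries also differed among the members. The edgeR fit gave a biological coefficient of variation of 21.7% for Ager, 16.3% for Vegfa and 15.4% for Nos3, where genes of their abundance had 17.5%, 17.3% and 17.4%. For Ager the treated group was the least spread, with an SD of 11.6% of the mean, against 23.3% in controls and 31.1% with bleomycin. For Nos3 the treated group was the most spread, at 20.5%, against 14.2% in controls and 9.11% with bleomycin. These differences in spread were not tested.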

How the data were processed

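The deposited file holds raw read counts, as whole numbers, for each Ensembl rat gene ID in 17 libraries; column names matched the sample labels. Libraries were made with a TruSeq mRNA kit, per the labels' protocols. The submitters' processing notes list FastQC 0.11.5, RSEM 1.3.0, featureCounts 1.5.1, STAR (2.5.2b and 2.5.2), bcl2fastq 2.20.0.422 and the builds Rnor_6.0, hg38 and GRCh38, with no roles. No source used here gives the counting tool, annotation release or strand setting.

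The analysis used edgeR 4.0.16 under R 4.3.3: filterByExpr by group (15000 genes, 99.9% of counts), TMM scaling, 1 quasi-likelihood model with the 3 groups, and F tests for each pair, adjusted by the Benjamini-Hochberg method over all tested genes. The SE is the log2 fold change divided by the square root of F. Log2 CPM used a prior count of 2, and ratios a count offset of 0.5. The code was tested on simulated data. Alternatives were RLE, upper quartile or no scaling factors, 2 other filters, a robust fit, fits to 2 groups, DESeq2 1.42.0, limma 3.58.1 (voom with quality weights) and leaving out libraries.

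The members, lists and alternatives were chosen with earlier results of these data known. Named genes were the 3 members and, with no table of names, the 1 gene most like each. The lists of marker and pathway genes could not be run for the same reason. No 2 libraries of a group agreed within sampling noise. Promoter sequences were found for 3 of 3 members by symbol.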

Additional observations from a re-analysis of the deposited data

Results flagged for a closer look

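Among 18 sets of library values examined (3 genes and 3 ratios in 3 groups), in 3 of them a single library stood apart by Dixon's test, which flags about 1 in 20 groups by chance. Ager in treated library 15 was 1043 CPM, while the other treated libraries held 1313 to 1466 CPM. In control library 1 the log2 ratio of Vegfa to Ager was -1.24, against -0.79 to -0.60 in the other controls. The log2 ratio of Nos3 to Ager in the same library was -6.76, against -6.18 to -5.88. Both ratios contain the Ager value of that library, the highest of all (2826 CPM), and are not separate signs. Without control library 1 the log2 fold change of Ager was -0.64 for bleomycin against control (called) and -0.47 for treated against control (not called).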

How the results depend on the processing

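The differences between bleomycin and control kept their sign and call for all 3 genes in all 27 alternatives, as did Nos3 and Ager in treated against bleomycin libraries (called and not called). For Vegfa in treated against bleomycin libraries the log2 fold change was called at 0.42 with total counts only, 0.37 with DESeq2 and 0.35 with limma voom. It was not called with the other scaling factors, the other filters, the robust fit or the fit to 2 groups. When 1 library was left out it lay between 0.26 and 0.44. In treated against control libraries Ager was no longer called with all genes that had a count (-0.59) and without treated libraries 13 and 17 (-0.61), and Vegfa likewise (-0.44 and -0.40). Leaving out 1 library gave -0.67 to -0.47 for Ager and -0.51 to -0.40 for Vegfa. Nos3 in the same comparison turned to -0.0050 without treated libraries 13 and 17. The count of called genes was 1929 in place of 4163 for treated against bleomycin without these libraries. It was 3126 without library 13 alone and 3232 without library 17 alone, against 3620 to 3977 without 1 other treated library. The fit without both also held fewer libraries, and the cause of the drop was not tested. For treated against control the count of called genes was 2546 with limma voom in place of 1259, and 794 to 1573 when 1 library was left out. The log2 ratio of Nos3 to Ager in treated against bleomycin libraries was not called without libraries 13 and 17 (-0.86) and lay between -0.86 and -0.53 when 1 library was left out. That of Vegfa to Ager in bleomycin against control lay between -0.13 and 0.038. In treated libraries the r of Ager and Nos3 turned from 0.022 to -0.12 with total counts. It turned to -0.18 without the 2 libraries farthest from the median of Ager. The r of Vegfa and Nos3 turned from -0.39 to 0.20 without the 2 libraries farthest from the median of Vegfa. Where not stated, the cause was not tested. No paired analysis was possible because no replicate number occurs in more than 1 group.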
